A study of Mus musculus with 32 samples.

Results

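Cytosolic ribosomal protein genes encode the protein components of the ribosome outside mitochondria, and they were followed here in an Alzheimer's disease mouse model treated with transcranial light. A gene was taken as a member when its symbol had the form Rpl or Rps plus a number, with an optional letter or digit behind it, or was Rplp0, Rplp1, Rplp2 or Rpsa. The rule used names only and no measured value. It took 83 of the 22337 genes in the tables, namely 43 of the large subunit, 31 of the small subunit and the 3 proteins of the large subunit stalk. The other 6 were paralogs (Rpl3l, Rpl7l1, Rpl10l, Rpl22l1, Rpl39l and Rps27l), which are second gene copies related to a usual member. Some genes such as Fau and Rack1 also encode parts of the ribosome but fall outside the pattern, and 4 of them are given apart.

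RNA was sequenced from the hippocampus, the meninges and sorted meningeal lymphatic endothelial cells (mLECs) of male mice aged 6 months on the C57BL/6J background. The 3 groups were wild-type mice (WT), 5xFAD mice, and 5xFAD mice given near-infrared light through the skull (5xFAD + light). 5xFAD mice carry mutant human transgenes of familial Alzheimer's disease under the neuronal Thy1 promoter, so the transgenes are made mainly by neurons. Mice without light were anaesthetised in the same way and kept under ordinary indoor lighting, so anaesthesia was common to all groups. The hippocampus gave 4 libraries per group, and meninges and mLECs gave 4 WT, 3 5xFAD and 3 5xFAD + light libraries each, 32 in all. The mLECs were sorted as live CD45-CD31+PDPN+ cells. Hippocampal libraries held 13952825 to 23856476 counts, meningeal ones 6601143 to 14708202 and mLEC ones 14231415 to 24207326.

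A ribosome is built from ribosomal RNA and from about one copy of each ribosomal protein, so the genes of these proteins are among the most strongly transcribed of most cells and tend to be expressed together. Their messages usually begin with a C followed by an unbroken run of pyrimidines, the 5′ terminal oligopyrimidine (TOP) motif, through which the kinase mTOR and the RNA-binding protein LARP1 control their translation. Several members also act outside the ribosome: Rpl5 and Rpl11 bind Mdm2, Rps6 is the classical substrate of S6 kinase, Rpsa is the precursor of a laminin receptor, and Rps27a is made as a fusion with ubiquitin. In bulk tissue, fewer cells of a type and less RNA per cell cannot be told apart.

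The start of transcription was looked at for 63 members with an entry among RefSeq promoters (GRCm38.p6). Within the 15 bases before and the 15 bases from the annotated start, 27 of the 63 (42.9%) had a run of at least 8 C or T on the transcribed strand, against 13.9% of all 27025 genes in the same table. The motif CCGGAAGT, the kind of site that ETS family factors bind, stood on either strand of the 300-base promoter in 12 of the 63 (19.0%), against 4.31% of all genes. Its reverse complement holds a short stretch of pyrimidines, so both motifs can overlap in part. The windows of genes that the results below turn on are printed 5′ to 3′ with pyrimidine runs of 8 or more in capitals, and the start is the 16th base.
Rps18, chr17:33955651-33955680, minus strand: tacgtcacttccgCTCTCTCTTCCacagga
Rps9, chr7:3704026-3704055, plus strand: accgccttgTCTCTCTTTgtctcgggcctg
Rpl35, chr2:39005117-39005146, minus strand: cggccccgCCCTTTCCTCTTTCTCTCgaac
Rplp0, chr5:115559452-115559481, plus strand: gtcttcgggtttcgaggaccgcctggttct
Rpsa, chr9:120127751-120127780, plus strand: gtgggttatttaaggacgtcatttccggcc
Rps18, Rps9 and Rpl35 thus carried such a run at their annotated start. Rplp0 and Rpsa did not have these letters in this window.

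Levels differed widely among members and were broadly ordered alike across tissues. FPKM, the number of fragments scaled to transcript length and library size, is corrected for length and is the scale for all levels here. In WT hippocampus Rpl41 was highest at 1040 ± 150 FPKM (SD, n = 4), followed by Rplp1 of the stalk at 939 ± 138 and Rpl13 at 933 ± 78.0, which lay within one another's spread. At the lower end stood Rps27l at 56.2 ± 5.51 FPKM, Rps20 at 32.2 ± 5.45 and Rpl7l1 at 22.8 ± 2.60.

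The same tops and bottoms recurred in WT meninges, where Rpl41 reached 3630 ± 1300 FPKM and Rps20 stood at 101 ± 35.5. In WT mLECs Rps14 stood at 1810 ± 818 FPKM and Rps27 at 1370 ± 452, both among the highest members. Across the 83 genes, Spearman's rho of the WT mean levels was 0.87 between hippocampus and meninges, 0.66 between hippocampus and mLECs and 0.71 between meninges and mLECs. These are descriptions over genes that share libraries and transcript lengths. A member with high FPKM in one tissue was mostly high in the others.

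**Figure D1:**
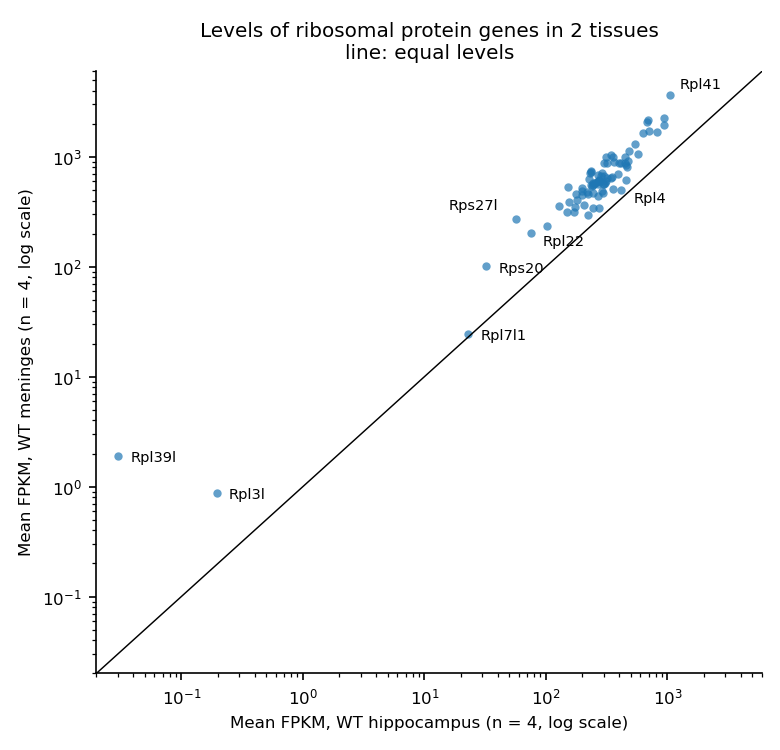
Each point is a ribosomal protein gene, with its mean FPKM in WT hippocampus on the horizontal log axis and in WT meninges on the vertical log axis (n = 4 each), and the line marks equal levels. Rpl41 is highest in both tissues at 1040 and 3630 FPKM, Rpl39l and Rpl3l lie near 0, and Rpl10l, at 0 in WT hippocampus, is not drawn.

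Among the paralogs, Rpl22l1 was the one that outweighed its partner. It made up 78.5% ± 1.73 (SD, n = 4) of the summed FPKM of Rpl22 and Rpl22l1 in WT hippocampus and 62.2% ± 4.86 in WT meninges. Rpl7l1 made up 7.80% ± 1.27 of its pair in WT hippocampus. Rpl3l, a form known from muscle, gave 20 counts over the 4 WT hippocampal libraries and none in any mLEC library, and Rpl10l, known from testis, gave none in WT hippocampus. Rpl39l gave 1 count over the 4 WT hippocampal libraries and 73 over the 4 WT meningeal libraries, and its 84 counts in WT mLECs all came from 1 library.

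Some libraries stood apart by markers of cell types, and medians without them are given with the results they touch. In mLECs the summed FPKM of 7 lymphatic markers was 38.0 in WT replicate 2 and 55.7 in WT replicate 4 against 1160 to 9720 in the other 8 libraries. In those 8 most of the sum was Ccl21a, which was 3.54 and 0 FPKM in WT replicates 2 and 4. Lyve1 (0 in both against 2.56 to 89.2) and Mmrn1 (0.06 and 19.7 against 46.6 to 146) were also lower in them. Flt4 did not set them apart, at 34.4 and 30.3 against 3.83 to 81.6. Nor did Pdpn, whose protein was used in the sort. It was 0 FPKM in both, but also 0 in 5xFAD replicates 2 and 4 and 0.04 in light-treated replicate 3, with 77.6 at most. Reln was 0 in both and also in other mLEC libraries, such as WT replicate 1. Prox1, which defines lymphatic identity, ran from 0 to 5.71 FPKM in mLECs and was highest in WT replicate 4. Pecam1 ran from 189 to 398. Erythroid markers summed to 12400 FPKM in 5xFAD mLEC replicate 4 against 0.31 to 511 in the other 9 mLEC libraries. In hippocampus the 4 choroid plexus markers summed to 2780 to 3180 FPKM in WT replicate 2 and 5xFAD replicates 1 and 2 against 36.0 to 691 in the other 9. The 4 hippocampal neuron markers summed to 58.1 FPKM in 5xFAD replicate 3 against 183 to 363 in the other 11. Hippocampal Thy1, whose promoter drives the transgenes, was 170 to 189 FPKM in WT, 407 to 622 in 5xFAD and 434 to 522 in 5xFAD + light libraries, which separated WT from both 5xFAD groups.

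The share of all counts taken by the 83 genes gives a first view of each library. In hippocampus it was 1.96% ± 0.166 (SD, n = 4) in WT, 2.53% ± 0.425 in 5xFAD and 2.14% ± 0.345 in 5xFAD + light. By library it was 1.82%, 1.89%, 2.20% and 1.93% in WT, 2.56%, 2.53%, 3.04% and 2.00% in 5xFAD, and 1.97%, 1.74%, 2.41% and 2.45% in 5xFAD + light. In 5xFAD, 3 of 4 libraries stood above all WT libraries, and the fourth lay within their range. In meninges the shares were 4.44% ± 1.10 (n = 4), 4.38% ± 0.341 (n = 3) and 4.09% ± 0.891 (n = 3), and the groups overlapped. In mLECs they were 2.07% ± 0.782 (n = 4), 2.94% ± 0.505 (n = 3) and 3.84% ± 1.41 (n = 3), with single libraries from 1.46% to 5.28%. The 2 WT mLEC libraries low in lymphatic markers had the 2 lowest shares of all mLEC libraries, 1.46% in replicate 4 and slightly more in replicate 2.

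**Figure D2:**
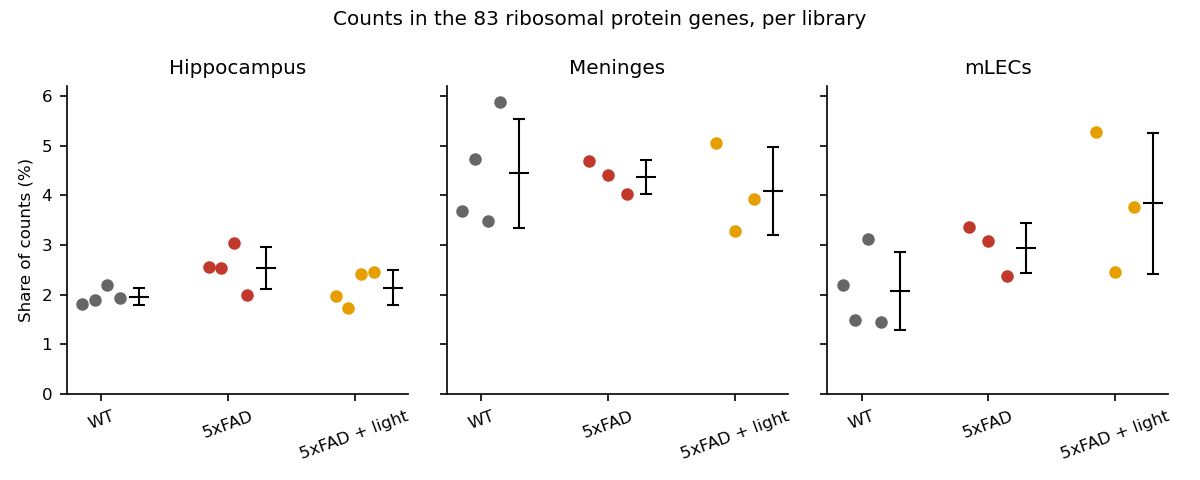
Share of all counts (percent, linear axis from 0) that fell in the 83 ribosomal protein genes, one point per library, with the group mean and SD as a bar beside the points. Hippocampal shares lie between 1.74% and 3.04%, meningeal ones between 3.29% and 5.87%, and mLEC shares spread most, from 1.46% to 5.28%.

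Whether the disease model altered these genes in the hippocampus was asked by comparing 5xFAD with WT mice. All 80 members that passed the filter on low values had a higher estimate in 5xFAD, by 0.15 (Rpl22) to 0.53 (Rpl32) on the log2 scale, with a median of 0.39, or 1.31-fold. Among all 12981 genes tested, 52.1% were above 0 and the median was 0.01. The stalk protein Rplp0, the small subunit proteins Rps18 and Rps9, and Rpl3, which lies near the catalytic centre of the large subunit, rose. These 4 of 80 passed the test (5.0%), whereas 8.54% of all genes did and 6.48% did so as higher. At an unadjusted p below 0.05 there were 49 members (61.3%), all higher in 5xFAD, against 13.7% of all genes. The shift was therefore broad and small, and single members seldom passed the correction over all genes (edgeR's quasi-likelihood test, Benjamini-Hochberg adjustment).

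Rps18 (chr17:33951999-33956001), a protein of the small subunit's head, stood at 287, 300, 331 and 346 FPKM in WT and at 453, 437, 498 and 374 in 5xFAD. The 5xFAD + light libraries gave 346, 304, 429 and 411 FPKM. All 5xFAD libraries were above all WT libraries, and the light-treated ones spanned both. The log2 fold change of 5xFAD against WT was 0.49 ± 0.14 (SE), with an adjusted p of 0.0424 in edgeR.

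Rplp0 (chr5:115559467-115563727), which anchors Rplp1 and Rplp2 in the stalk that recruits translation factors, was 288, 297, 307 and 303 FPKM in WT. It was 462, 371, 368 and 351 in 5xFAD and 349, 349, 408 and 395 in 5xFAD + light. Every 5xFAD and every light-treated library exceeded the highest WT library. Its log2 fold change in 5xFAD was 0.42 ± 0.12 (SE, edgeR adjusted p 0.0431).

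Rps9 (chr7:3703993-3706897), an early binder in small subunit assembly, was 297, 303, 343 and 302 FPKM in WT and 460, 420, 473 and 363 in 5xFAD. In 5xFAD + light it was 345, 290, 401 and 408. The 5xFAD and WT libraries did not overlap, and the light-treated ones reached below the lowest WT library. Its log2 fold change in 5xFAD was 0.47 ± 0.14 (SE, edgeR adjusted p 0.0472).

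Rpl3 (chr15:80077791-80091868) varied least within groups. It stood at 455, 453, 440 and 468 FPKM in WT, at 542, 538, 571 and 557 in 5xFAD and at 556, 547, 633 and 559 in 5xFAD + light. No 5xFAD or light-treated library overlapped WT, and the log2 fold change in 5xFAD was 0.29 ± 0.08 (SE, edgeR adjusted p 0.0478).

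**Figure D3:**
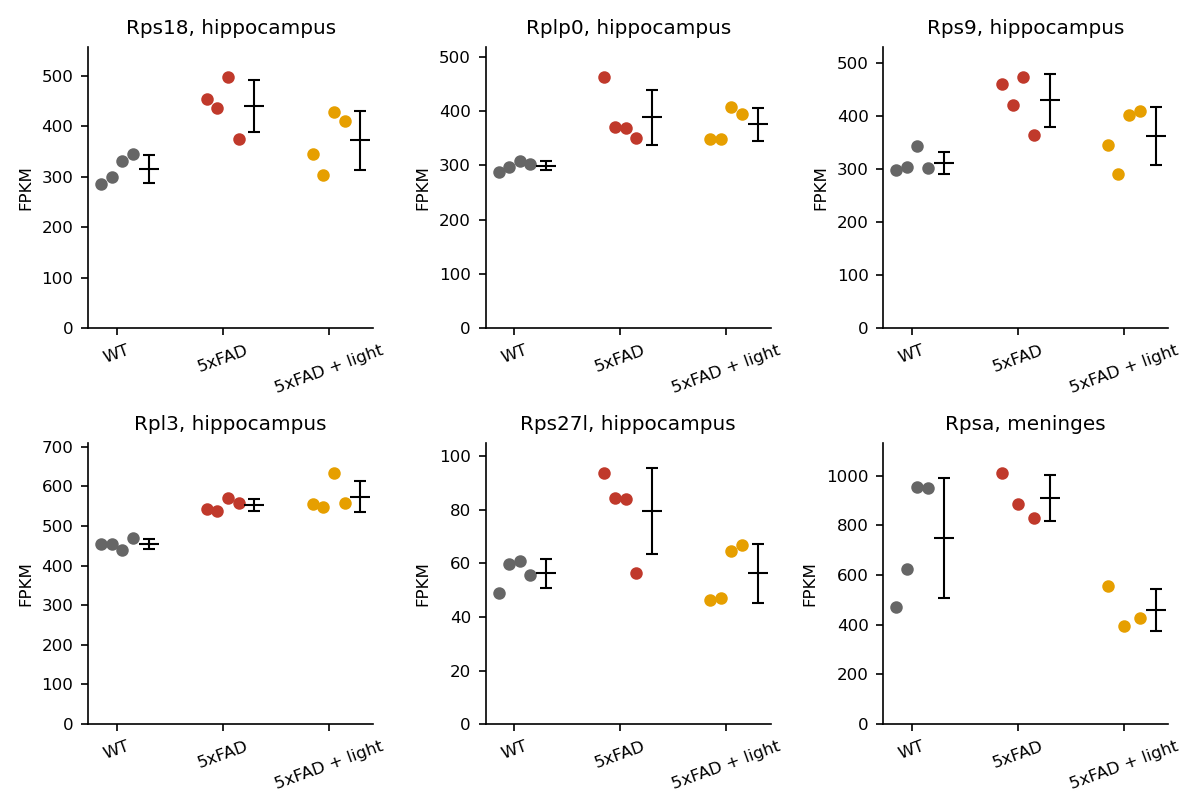
FPKM per library (points, linear axes from 0) with the group mean and SD beside them, for 5 genes in hippocampus (n = 4 per group) and Rpsa in meninges (n = 4 WT, 3 in each 5xFAD group). Rps18, Rplp0, Rps9 and Rpl3 do not overlap between WT and 5xFAD, the mean of Rps27l is lower again in light-treated mice but the groups overlap, and meningeal Rpsa is lower in all 3 light-treated libraries (396 to 558) than in the 5xFAD libraries (831 to 1011).

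By role, the estimates were alike across the ribosome. The 43 large subunit genes had a median log2 fold change of 0.38 with 27 at an unadjusted p below 0.05, and the 31 small subunit genes had 0.41 with 20. The 3 stalk genes had 0.34 and the 3 tested paralogs 0.18. FPKM of 15 members (18.8%) did not overlap between the groups, with 5xFAD higher, against 8.75% of all genes. Among them were Rps2, Rps3, Rps4x, Rps6, Rps9, Rps18, Rpl3, Rpl4, Rpl5, Rpl9, Rpl10a, Rpl17 and Rplp0.

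Members with roles of their own lay within this range. Rps6 was 435, 431, 487 and 426 FPKM in WT and 590, 565, 662 and 503 in 5xFAD, which do not overlap, and its log2 fold change of 0.39 ± 0.13 (SE) missed the threshold (edgeR adjusted p 0.0726). Rpsa was 0.40 ± 0.15 higher on the log2 scale (edgeR adjusted p 0.113), with WT libraries from 210 to 262 FPKM and 5xFAD ones from 238 to 395. Rpl32, with the largest estimate, was 444 to 563 FPKM in WT and 518 to 872 in 5xFAD, which overlap (0.53 ± 0.19, edgeR adjusted p 0.103). Rpl22 went from 74.7 ± 6.44 to 96.1 ± 13.0 FPKM (SD, n = 4 each), a log2 ratio of 0.36, while its counts gave 0.15 ± 0.10. Rpl22 was the 1 member of 80 whose FPKM ratio and count-based estimate differed by more than 0.2 here. FPKM also uses an effective transcript length, and its part in this gap was not tested.

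The 4 called members depended on single libraries. Leaving out replicate 4 of 5xFAD, whose share of 2.00% lay within the WT range, gave 32 called members. Leaving out replicate 3, the library low in hippocampal neuron markers and highest in ribosomal protein share, gave 1, and leaving out any other of the 8 libraries gave 0. The share of all genes called in these fits is not given here, so the counts show only how the calls varied. The median stayed between 0.28 and 0.50 in all 8 fits. Without the 3 libraries high in choroid plexus markers it was 0.34 and no member was called, with 3 at an unadjusted p below 0.05.

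Whether light altered the genes in 5xFAD hippocampus was asked next, and this comparison shares its 5xFAD libraries with the one above. The estimates were below 0 for 78 of 80 members, with a median of -0.26 (0.835-fold), against -0.02 for all genes, of which 47.5% were above 0. No member passed the test, and 0.455% of all genes did. At an unadjusted p below 0.05 there were 9 members, all lower with light: Rpl10, Rpl13a, Rpl32, Rpl35, Rpl36, Rpl41, Rps25, Rps27 and Rps27l. That is 11.2% of members, against 9.81% of all genes that were lower at that p, so a share near the background. No member's groups were free of overlap in either direction, whereas 3.98% of all genes did not overlap and were lower. DESeq2 and limma on log2 FPKM called no member either. The median ran from -0.37 to -0.14 when 1 library was left out, and it was -0.14 without light-treated replicate 2 and -0.15 without 5xFAD replicate 3. Without the 3 libraries high in choroid plexus markers it was -0.25.

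Rps27l, a paralog of Rps27 induced by p53, had the smallest p. It was 48.7, 59.9, 60.8 and 55.5 FPKM in WT, 93.6, 84.2, 84.1 and 56.3 in 5xFAD, and 46.3, 47.0, 64.7 and 66.8 in 5xFAD + light. Replicate 4 of 5xFAD lay among the light-treated and WT libraries, and the other 3 lay above all of them. Its log2 fold change with light was -0.50 ± 0.18 (SE, edgeR adjusted p 0.171), and that of 5xFAD against WT was 0.51 ± 0.18 (edgeR adjusted p 0.101).

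Rpl10, which joins the large subunit late in its maturation, was 431, 375, 409 and 326 FPKM in 5xFAD and 295, 254, 350 and 321 with light (-0.34 ± 0.13, edgeR adjusted p 0.197). Rps25, needed for initiation at some internal ribosome entry sites, was 791, 747, 844 and 585 FPKM in 5xFAD and 447, 427, 663 and 677 with light (-0.42 ± 0.18, edgeR adjusted p 0.230). In both genes the lowest 5xFAD library fell inside the light-treated range. The lowest estimate was that of Rpl35, which sits at the tunnel exit of the large subunit, at 263, 311, 326 and 163 FPKM in 5xFAD and 144, 111, 217 and 227 with light (-0.60 ± 0.26, edgeR adjusted p 0.244).

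The 4 genes called in 5xFAD had smaller estimates with light. They were -0.24 ± 0.14 for Rps18, -0.25 ± 0.14 for Rps9, -0.08 ± 0.12 for Rplp0 and 0.05 ± 0.08 for Rpl3 (edgeR adjusted p 0.366, 0.351, 0.742 and 0.760). Rpl3 and Rpl22 (0.02 ± 0.10) were the members above 0. The sign for Rpl22 was the opposite in limma on log2 FPKM (-0.31).

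Light-treated 5xFAD against WT mice, which shares libraries with both comparisons above, gave 65 of 80 members above 0 and a median of 0.11 (all genes 0.00, with 49.6% above 0). Rpl3 rose, with a log2 fold change of 0.35 ± 0.08 (edgeR adjusted p 0.0357). It was the 1 member of 80 called, against 3.59% of all genes. At an unadjusted p below 0.05 there were 7 members (8.75%), all higher, against 10.4% of all genes. It was called in 1 of the 8 fits that leave out a library, the one without light-treated replicate 2, and not without the 3 libraries high in choroid plexus markers, where the median was 0.08. The median was 0.02 to 0.23 when 1 library was left out. Rps2, at the messenger RNA entry of the small subunit, was 437 to 489 FPKM in WT and 527 to 617 with light (0.31 ± 0.10, edgeR adjusted p 0.139), and Rplp0 was 0.33 ± 0.12 higher (edgeR adjusted p 0.161). Rpl3, Rpl4, Rpl7a, Rplp0, Rps2 and Rpsa, 6 members (7.5%), did not overlap with WT, and 7.33% of all genes did so in that direction. Rpl22l1 had the lowest estimate, -0.24 ± 0.22, at 245 to 336 FPKM in WT and 158 to 301 with light.

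**Figure D4:**
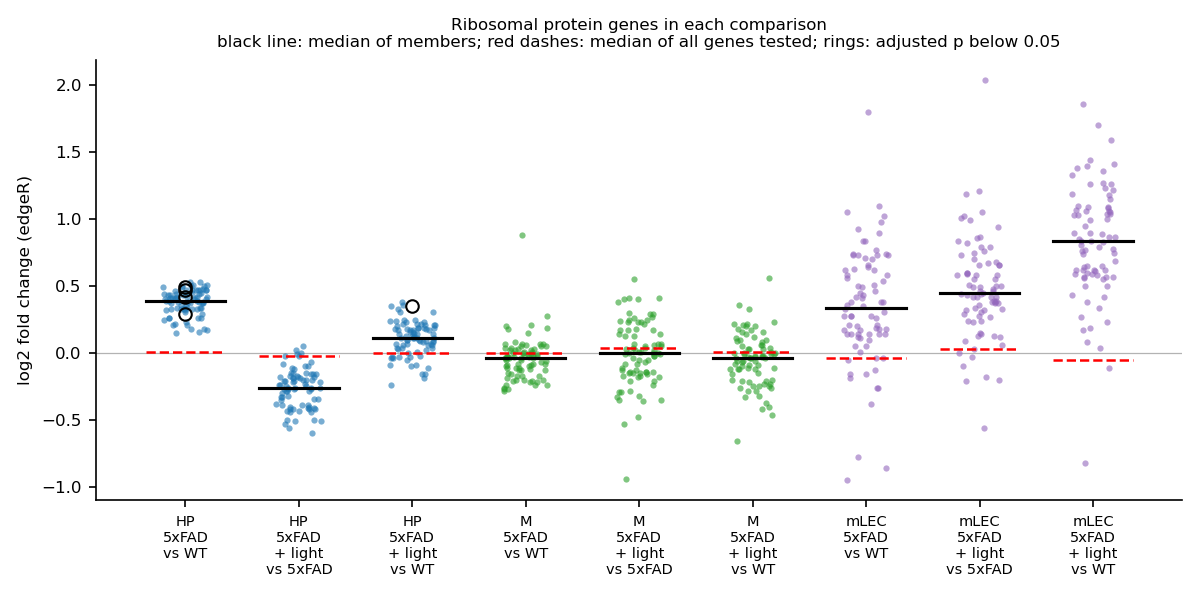
Log2 fold changes (edgeR) of the ribosomal protein genes in each comparison of hippocampus (HP), meninges (M) and mLECs, one point per gene, with the median of the members as a black line, the median of all genes tested as red dashes and rings on members with an adjusted p below 0.05. The median is 0.39 and then -0.26 in hippocampus, near 0 in meninges and 0.34, 0.45 and 0.83 in mLECs, where the points spread most.

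Transcript length moved with these estimates in hippocampus. The median effective length was 692 bases for the 80 members and 2721 for all tested genes with a length. Among 826 other genes of 400 to 1000 bases the median log2 fold change was 0.19 in 5xFAD against WT and -0.22 with light against 5xFAD, beside 0.39 and -0.26 for the members. The share of counts in such other short genes ran from 8.89% to 13.9% in the 12 hippocampal libraries and was highest in 5xFAD replicate 3 and lowest in light-treated replicate 2, the same libraries as for the ribosomal protein share.

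Among the members themselves, Spearman's rho between length and log2 fold change was 0.50 with light and -0.22 in 5xFAD (n = 80 genes, described only). With light the 28 members under 600 bases had a median of -0.39 and the 16 of 1000 bases or more had -0.18. After a trend with length was removed over all genes, the median was 0.18 in 5xFAD against WT, with 72 of 80 above 0 and 2 called. With light against 5xFAD it was then -0.04, with 28 of 80 above 0. For light against WT it was 0.12, with 67 of 80 above 0. There 3 members were called and 22, instead of 7, were higher at an unadjusted p below 0.05 in edgeR. The share of all genes at that p after the removal is not given here. The part of length in the result with light was not tested beyond this.

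**Figure D5:**
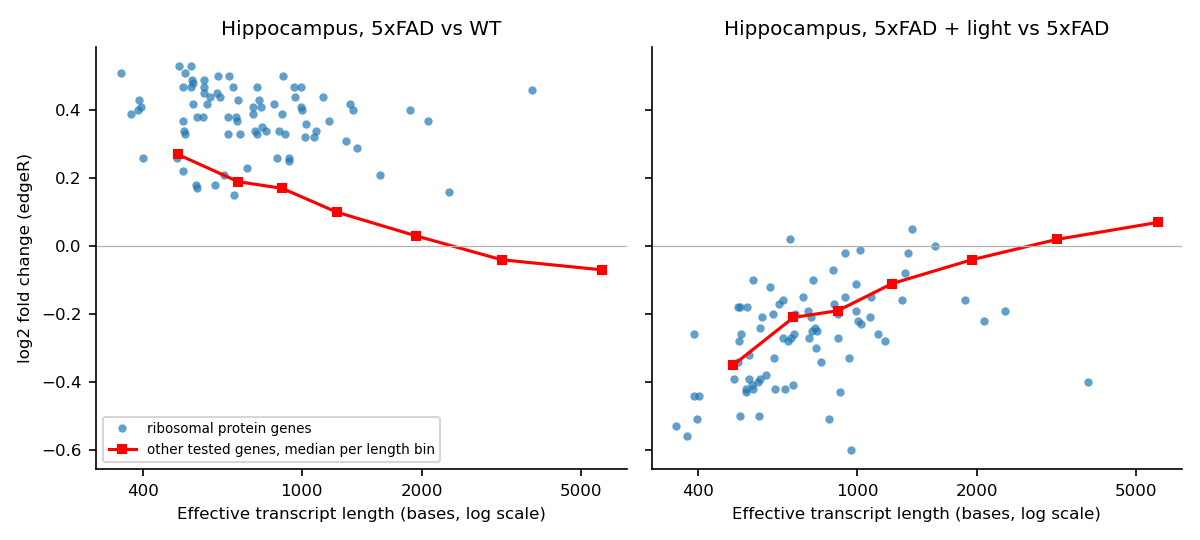
Log2 fold change (edgeR) in hippocampus against effective transcript length (bases, log axis) for the ribosomal protein genes (blue points) and the median of all other tested genes per length bin (red squares), for 5xFAD against WT on the left and 5xFAD + light against 5xFAD on the right. On the left the members lie mostly above the line of other genes of like length, from 0.27 at 400 to 600 bases downwards, and on the right the members' median is below that of other genes in each bin that holds members, such as -0.38 beside -0.35 at 400 to 600 bases and -0.25 beside -0.21 at 600 to 800.

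Other lists of the translation machinery were compared in the same fits. The 4 ribosome genes outside the name pattern had medians of 0.31 in 5xFAD against WT and -0.32 with light, and none was called. The 78 mitochondrial ribosomal protein genes had medians of 0.06 (52 above 0) and -0.14 (15 above 0). One of them, Mrpl55, rose in 5xFAD (0.40 ± 0.11, edgeR adjusted p 0.0302), and none was called with light.

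Of 16 translation factors and other genes with TOP messages, 14 were above 0 in 5xFAD with a median of 0.18. Eef1g, a subunit of elongation factor 1, rose (0.32 ± 0.07, edgeR adjusted p 0.0111), and so did Vim, an intermediate filament gene of reactive glia (2.39 ± 0.53, edgeR adjusted p 0.0124). With light against 5xFAD their median was -0.04 and none was called. Against WT, light-treated mice had higher Pabpc1, the poly(A)-binding protein (0.39 ± 0.10, edgeR adjusted p 0.0413), and Eef1a1, which brings transfer RNA to the ribosome (0.36 ± 0.09, edgeR adjusted p 0.0358).

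The 30 ribosome biogenesis genes had medians of -0.05 and -0.01 with none called. Among 16 regulators of the mTOR and Myc pathways, Eif4ebp1, a repressor of cap-dependent translation, rose in 5xFAD (1.18 ± 0.23, edgeR adjusted p 0.00587), and Tsc2, a brake on mTOR, fell (-0.32 ± 0.09, edgeR adjusted p 0.0366). With light against 5xFAD, Mycn was the 1 regulator called, at 3.92 ± 0.762 against 1.09 ± 0.434 FPKM (SD, n = 4 each, log2 fold change 1.85 ± 0.36, edgeR adjusted p 0.0482). The medians of the regulators were -0.06 and 0.05. The genes that build ribosomes thus did not have the median shift that the ribosomal protein genes had. Transcript length was not taken into account in these medians.

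Markers of glia and macrophages moved with genotype in the same libraries. The 5 markers of plaque-associated microglia summed to 96.8 to 118 FPKM in WT, 749 to 1360 in 5xFAD and 503 to 1140 in 5xFAD + light hippocampus. Astrocyte markers summed to 477 to 569 FPKM in WT, 622 to 3010 in 5xFAD and 1020 to 1410 in 5xFAD + light, and macrophage markers to 12.8 to 21.8, 108 to 238 and 88.7 to 174. For these 3 lists every library of both 5xFAD groups was above every WT library. Their part in the ribosomal protein values was not tested.

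In the meninges the same comparisons gave no called member. In 5xFAD against WT, 26 of 81 members were above 0 with a median of -0.04, and 0% of the 14318 genes passed the test in edgeR. No member had an unadjusted p below 0.05, whereas 2.12% of all genes did as higher and 1.89% as lower, and neither DESeq2 nor limma called a member. The median ran from -0.18 to 0.12 over fits that left out 1 library, so its sign rested on single libraries. Other genes of 400 to 1000 bases had a median of -0.12, and with the length trend removed the members' median was 0.11, with 62 of 81 above 0. The smallest p among higher estimates was that of Rpl39l, at 2.38, 2.69, 1.15 and 1.41 FPKM in WT and 3.07, 4.80 and 3.37 in 5xFAD (0.88 ± 0.56, edgeR adjusted p 0.987). It was the 1 member (1.23%) whose groups did not overlap with 5xFAD higher, against 2.19% of all genes. Rpl28 had the smallest p among lower estimates (-0.27 ± 0.30, edgeR adjusted p 0.988).

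With light against 5xFAD in meninges, 41 of 81 members were above 0, against 53.0% of all genes, and the median was 0.00. It was -0.24 without light-treated replicate 1 and 0.20 without light-treated replicate 2. Other genes of 400 to 1000 bases had a median of 0.15, and with the length trend removed the members' median was -0.17, with 21 above 0 and 11 lower at an unadjusted p below 0.05. No member was called, against 0.014% of all genes in edgeR, and 1 had an unadjusted p below 0.05, with a lower value, as had 7.71% of all genes. That gene, Rpsa, stood at 470, 625, 954 and 951 FPKM in WT, at 1011, 887 and 831 in 5xFAD and at 558, 396 and 425 with light. All light-treated libraries were below all 5xFAD libraries, while WT spanned both. The log2 fold change was -0.94 ± 0.29 (SE, edgeR adjusted p 0.291) against 5xFAD and -0.66 ± 0.27 (edgeR adjusted p 0.253) against WT, and that of 5xFAD against WT was 0.28 ± 0.26. Rps4x was the other member, besides Rpsa, with no overlap and lower values (2.47% of members against 10.7% of all genes), and Rpl4 and Rpl15 did not overlap and were higher, a pattern of 10.1% of all genes.

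Rpl22l1 had the largest estimate with light in meninges, at 332, 306 and 273 FPKM in 5xFAD and 524, 307 and 479 with light (0.55 ± 0.35, edgeR adjusted p 0.509). Its WT libraries ranged from 183 to 467 FPKM, and against WT the estimate was 0.36 ± 0.32. Light-treated against WT meninges had 31 of 81 members above 0, against 51.0% of all genes, a median of -0.04 and no called member in edgeR, DESeq2 or limma, with Rpsa the 1 member at an unadjusted p below 0.05 (lower, as were 8.32% of all genes). With the length trend removed the median was -0.07, with 26 above 0. Light-treated meningeal replicate 1 held erythroid markers summing to 48500 FPKM against 5040 to 18200 in the other 9 libraries, and neutrophil markers of 6640 against 491 to 2720, and it also had the highest light-treated ribosomal protein share, 5.05%. The part of these cells in the values was not tested.

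In mLECs the members leaned upwards from WT through 5xFAD to 5xFAD + light, with a wide spread. In 5xFAD against WT, 67 of 80 were above 0 with a median of 0.34 (all genes -0.04). With light against 5xFAD, which shares the 5xFAD libraries, 74 were above 0 with a median of 0.45 (all genes 0.03). With light against WT, 78 were above 0 with a median of 0.83, or 1.78-fold (all genes -0.05). No member was called in any of these, against 0%, 0% and 0.0122% of the 8188 genes in edgeR. DESeq2 and limma called none either. At an unadjusted p below 0.05 there was 1 member lower in 5xFAD against WT, Rpl5, where 1.81% of all genes were, and none with light against 5xFAD, where 0.818% of all genes were higher and 3.19% lower. With light against WT there were 9 higher (11.2%, against 2.25% of all genes): Rpl7, Rpl13a, Rpl21, Rpl27a, Rpl35, Rps6, Rps9, Rps19 and Rps27.

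Rpl7, which helps bind ribosomal RNA in the large subunit, had the smallest p with light against WT. It was 315, 324, 272 and 205 FPKM in WT, 432, 428 and 397 in 5xFAD and 924, 547 and 720 with light. The 3 groups formed separate ranges. The log2 fold change was 1.22 ± 0.42 (SE, edgeR adjusted p 0.740) against WT and 0.84 ± 0.46 (edgeR adjusted p 1.00) against 5xFAD.

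Rpl10 was 12.6, 72.8, 98.7 and 62.8 FPKM in WT, 368, 126 and 202 in 5xFAD, and 172, 201 and 202 with light. Every WT library was below every library of the 5xFAD groups, but the estimate of 1.80 ± 0.89 in 5xFAD against WT did not pass (edgeR adjusted p 1.00). Rpl5 went the other way, at 490, 307, 378 and 428 FPKM in WT, 265, 289 and 209 in 5xFAD and 627, 334 and 338 with light. It was the 1 member in any tissue whose 5xFAD libraries lay below all WT and all light-treated ones (-0.86 ± 0.40 in 5xFAD and 0.76 ± 0.42 with light, both edgeR adjusted p 1.00). No member in any tissue was above both in 5xFAD. The share of all genes with either of these patterns is not given here, so Rpl5 is not set against a background. In mLECs, 1.22% of all genes did not overlap and were lower in 5xFAD than in WT. In 5xFAD against WT, 10 members (12.5%) did not overlap and were higher, against 5.01% of all genes. With light against 5xFAD there were 10 (12.5%, against 3.55%), and with light against WT 11 (13.8%, against 3.64%).

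These mLEC values rested on few libraries. Without the 2 WT libraries low in lymphatic markers the median was 0.02 in 5xFAD against WT and 0.54 with light against WT. Without 5xFAD replicate 4, the library high in erythroid markers, it was 0.46 in 5xFAD against WT and 0.38 with light against 5xFAD. Without light-treated replicate 1 it was 0.23 with light against 5xFAD and 0.52 with light against WT. After the length trend was removed over all genes, the medians were -0.69, 0.61 and -0.04 for 5xFAD against WT, light against 5xFAD and light against WT. Before it, other genes of 400 to 1000 bases had 0.19, 0.18 and 0.37. In 5xFAD against WT the members' median was 0.38 beside 0.28 for other genes at 400 to 600 bases. It was 0.41 beside 0.11 at 600 to 800 and -0.06 beside -0.05 at 1500 to 2500. The median of -0.69 is thus not matched by genes of like length, and the reason was not tested. Rpl7l1, whose estimate with light against WT was -0.82 ± 1.51, took 3.14% ± 4.19 (SD, n = 3) of its pair with Rpl7 in light-treated mLECs against 14.9% ± 7.40 in WT (n = 4).

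The ribosomal protein genes were also compared between 2 tissues of WT mice. All 81 tested members were above 0 in meninges against hippocampus, with a median of 1.07, or 2.11-fold, where all 15132 genes had a median of 0.12 and 53.5% above 0. In this comparison 75 members (92.6%) rose, against 73.0% of all genes called and 39.9% called as higher. FPKM of 70 members (86.4%) did not overlap, against 36.1% of all genes. Rpl39l had the largest estimate, 6.11, from 1 count over the WT hippocampal libraries and 73 over the WT meningeal ones. The estimates of Rps27l (2.22 ± 0.26, edgeR adjusted p 1.54e-07), Rpl18 (1.56 ± 0.18, 1.68e-07), Rplp0 (1.53 ± 0.17, 6.09e-08) and Rpsa (1.45 ± 0.19, 1.11e-06) were also among the large ones. Those that did not pass were Rpl4, Rpl7l1, Rpl22l1, Rpl37, Rps7 and Rps21. Rpl4 had the lowest estimate (0.17 ± 0.14, edgeR adjusted p 0.291).

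The other lists differed among themselves between the tissues, where 73.0% of all genes were called. The 4 ribosome genes outside the name pattern had a median of 1.11 with 4 called, and the 16 genes with TOP messages had 0.54 with 12 called. The 78 mitochondrial ribosomal protein genes had a median of 0.08 with 37 called, and the 30 biogenesis genes had -0.10 with 18 called. Both of these held moves in either direction, from -1.26 to 1.80 and from -1.58 to 0.79. Other genes of 400 to 1000 bases had a median of 0.88 here, beside 1.07 for the members. After removal of the length trend the members' median was 0.03, with 38 called, of which 20 had p below 0.05 as higher and 18 as lower. The tissues also differ in cells: choroid plexus markers summed to 15600 to 49200 FPKM in meninges and 36.0 to 3180 in hippocampus, and meningeal fibroblast markers to 848 to 1990 and 9.72 to 108. Tissue, cell content and library cannot be told apart here.

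The difference between tissues in the response itself was tested in 1 fit over meninges and hippocampus. The difference of 5xFAD from WT was estimated lower in meninges than in hippocampus for all 81 members, with a median difference of -0.42 on the log2 scale (all genes -0.11, 40.4% above 0). No member passed, against 1.74% of all genes in edgeR. At an unadjusted p below 0.05 there were 2 members, both lower (2.47%, against 9.61% of all genes), among them Rps9 (-0.69 ± 0.32, edgeR adjusted p 0.372), and DESeq2 and limma called none. Other genes of 400 to 1000 bases had a median difference of -0.41, and with the length trend removed that of the members was -0.03, with 36 of 81 above 0.

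For the response to light, 63 of 81 members were higher in meninges than in hippocampus with a median difference of 0.22 (all genes 0.06, 53.7% above 0). Other genes of 400 to 1000 bases had 0.39. With the length trend removed the members' median was -0.15, with 26 of 81 above 0 and 15 lower at an unadjusted p below 0.05. It was 0.00 to 0.38 when 1 library was left out, the lowest without light-treated meningeal replicate 1. No member passed in edgeR, against 1.05% of all genes. Rpsa went the other way at -0.95 ± 0.29 (edgeR adjusted p 0.0959), and DESeq2 called it. Rpl22l1 (0.94 ± 0.41) and Rps27l (0.89 ± 0.37) were higher in meninges, with edgeR adjusted p of 0.216 and 0.20. They and Rps7 were the 3 members higher at an unadjusted p below 0.05 (3.70%, against 8.93% of all genes), and Rpsa was the 1 lower (1.23%, against 10.9%).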

How the data were processed

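The 32 samples were sequenced by the authors after oligo-dT priming and a Smart-seq2 type amplification. Hippocampus and meninges entered as extracted total RNA, whereas the sorted mLECs were lysed directly. The authors deposited RSEM expected counts and FPKM per gene. Their methods name fastp and RSEM, whereas the submitters' processing notes list Trimmomatic, HISAT2, StringTie, DESeq2 and mm10, with no version given in the sources used here. Samples were grouped by their titles, 9 groups in all. The members and lists were chosen with earlier results of these data known.

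Expected counts were rounded to whole numbers. A gene entered the test at 1 FPKM or more in 3 or more libraries, and edgeR 4.0.16 (TMM, quasi-likelihood, R 4.3.3) was run in 1 fit per tissue over its 3 groups, with p-values adjusted by Benjamini-Hochberg over all tested genes and a call at an adjusted p below 0.05. A joint fit of meninges and hippocampus gave the tissue comparison and both interactions. SE is that of the log2 fold change. FPKM values were used as deposited by the authors. Smart-seq2 has no molecular identifiers, so counts include amplification copies. One sample is one mouse per the study's methods, and nothing in the labels gives the batch. Of the members, 46 had fractional expected counts in at least 1 sample, as RSEM gives where reads are split between genes, and pseudogene copies could share their reads, so their values are less certain.

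Named genes were the called members, the 3 with the smallest p per direction, the highest and lowest levels, the paralogs, members with a role of their own and members moving in opposite directions; a part of these is printed, and some are not reported here. Other genes named beside counts were chosen after their values were seen. Cell type markers were summed as FPKM. Alternatives were DESeq2 1.42.0, limma 3.58.1 on log2(FPKM + 1) and log2(FPKM + 0.1), RLE scaling, no filter, a mean FPKM of at least 5, a 2-fold threshold, a replicate block, only the compared groups and leaving out each library. Added after seeing the data were removal of a length trend and leaving out libraries by cell markers. Start windows came from RefSeq promoters on GRCm38.p6, read 250 bases before to 50 bases from each start. The scripts were tested on simulated data.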

Additional observations from a re-analysis of the deposited data

Results flagged for a closer look

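In groups of 4 libraries, 8 values lay apart from the other 3 by Dixon's criterion, among 115 groups looked at over 23 genes, and chance sets apart about 1 in 20 groups. Of these, 5 were from WT hippocampal replicate 3, which had the highest value of its group: Rps9 at 343 FPKM (others 297 to 303), Rps6 at 487 (426 to 435), Rpl7 at 308 (258 to 264), Rpl35 at 256 (175 to 179) and Rpl39l at 0.12 (others 0), the last being 1 count. That library also had the highest ribosomal protein share of the WT hippocampal group, 2.20%. Rpl5 stood at 263 FPKM in 5xFAD hippocampal replicate 1 (others 211 to 213). Rpl3 stood at 633 FPKM in light-treated hippocampal replicate 3 (others 547 to 559). Rpl39l stood at 6.44 FPKM in WT mLEC replicate 3 and at 0 in the other 3.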

How the results depend on the processing

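Called members of hippocampus, 4 in 5xFAD against WT and 1 with light against WT, became 0 and 0 with a 2-fold threshold, without the filter, and without the 3 libraries high in choroid plexus markers. For 5xFAD against WT they were 13 in DESeq2, 9 in either limma fit, 2 with the compared groups alone, 2 with the length trend removed, and 0 to 32 when 1 library was left out. For light against WT they were 4 with the compared groups alone, 3 with the length trend removed and 0 to 1 when 1 library was left out. The shares of all genes called under these alternatives are not given here, so the counts are not set against a background. For WT meninges against hippocampus they were 47 with a 2-fold threshold and 38 with the length trend removed, of 75. For the light response between tissues DESeq2 called 1, Rpsa. Apart from the replicate block, every other count of calls was within 1.5 times under the alternatives run.

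Same-numbered libraries did not pair: correlations of their deviations ran from -0.24 to 0.09 in hippocampus, -0.32 to 0.26 in meninges and -0.04 to 0.01 in mLECs. With a replicate block the calls were 3 in 5xFAD against WT and 0 with light against WT in hippocampus, 73 between tissues, and 0 elsewhere.

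Directions changed for a few genes with small estimates. With the length trend removed, Rpl22 was -0.07 in 5xFAD against WT, Rps18 0.03 and Rplp0 0.01 with light against 5xFAD (all hippocampus), and Rpl4 -0.15 between tissues. With light against 5xFAD in hippocampus, Rplp0 was 0.05 without the choroid plexus libraries and -0.14 to 0.03 when 1 library was left out, Rpl22 was -0.31 in either limma fit and -0.04 to 0.08, and Rpl3 was -0.01 to 0.09. The length trend also moved the medians of the responses between tissues, to -0.03 for 5xFAD and -0.15 for light. Causes were not tested beyond what each alternative leaves out.

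Transcript length and cell markers moved with some of the values given above. Smart-seq2 amplification was used for all libraries, and its part was not tested.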
